A study of Homo sapiens with 12 samples.

Results

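The ZBTB genes encode transcription factors that pair a BTB domain (also called POZ) at one end of the protein with C2H2 zinc fingers at the other. The BTB domain forms dimers and recruits corepressor complexes such as NCOR, SIN3 and BCOR with their histone deacetylases, or links the protein to the CUL3 ubiquitin ligase, while the fingers bind DNA. Members are known from lymphocyte development, globin switching, binding of methylated CpG sites, telomere binding and control of cell-cycle inhibitors, and several act in the intestinal epithelium and in colorectal cancer cells. The members described here were the human genes whose deposited symbol is ZBTB followed by a number and at most 1 letter: 41 of 60666 human gene rows. Of these, 37 were expressed enough to be tested, among 20791 tested genes.

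RNA was measured in DLD-1 cells, an established human colorectal adenocarcinoma line. All cells expressed OsTIR1, a plant auxin receptor that sends proteins carrying an auxin-inducible degron (AID) to the proteasome once auxin is added. The groups were SPT6-AID cells sampled at 0, 2 and 6 h of 500 µM auxin and the PAF1-AID line sampled at the same times, giving 6 groups of 2 libraries each. SPT6 moves along genes with elongating polymerase and handles histones, and PAF1 is a subunit of the PAF1 elongation complex; the series asked how transcription depends on them. Replicates are numbered 1 and 2 for the SPT6-AID line and 3 and 4 for the PAF1-AID line, and values below are given in that order. The labels name neither a clone number nor separate cultures, so a p-value here reflects library-to-library spread that may be technical. No auxin-treated cells without a degron-tagged protein were analysed here, so the effect of auxin and that of losing the protein cannot be told apart. The degron acts on the protein, so the mRNA levels of SUPT6H (which encodes SPT6) and PAF1 do not check depletion. In RNA from whole cultures, fewer cells of a type and less RNA per cell cannot be told apart.

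Promoter windows are shown for the members whose changes the results turn on. These are ZBTB33, which encodes Kaiso and differed most between the lines, ZBTB24 and ZBTB48, which fell furthest after ZBTB40 in SPT6-AID cells, and ZBTB34, which rose furthest there. The stretch shared by the divergent neighbours ZBTB1 and ZBTB25 is shown because the pair has adjoining starts and fold changes of opposite sign at 6 h. Each window runs 5′ to 3′ on the gene's strand from 250 bases before to 50 bases after a RefSeq start (build GRCh38.p14), and capitals mark GC boxes, GGGCGG on either strand, the letters bound by SP1-type factors. The ZBTB33 window is chrX:120250562-120250861 (plus strand), the ZBTB24 window is chr6:109483170-109483469 (minus), the ZBTB48 window is chr1:6579744-6580043 (plus), the ZBTB34 window is chr9:126860389-126860688 (plus), and the stretch shared by ZBTB1 and ZBTB25 is chr14:64503789-64503936, read on the plus strand.
ZBTB33: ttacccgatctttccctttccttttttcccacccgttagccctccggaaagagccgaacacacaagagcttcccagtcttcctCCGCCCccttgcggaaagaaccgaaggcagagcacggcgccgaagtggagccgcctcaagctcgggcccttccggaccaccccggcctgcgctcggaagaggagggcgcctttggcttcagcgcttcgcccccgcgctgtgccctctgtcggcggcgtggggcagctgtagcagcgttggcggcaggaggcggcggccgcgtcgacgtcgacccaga
ZBTB24: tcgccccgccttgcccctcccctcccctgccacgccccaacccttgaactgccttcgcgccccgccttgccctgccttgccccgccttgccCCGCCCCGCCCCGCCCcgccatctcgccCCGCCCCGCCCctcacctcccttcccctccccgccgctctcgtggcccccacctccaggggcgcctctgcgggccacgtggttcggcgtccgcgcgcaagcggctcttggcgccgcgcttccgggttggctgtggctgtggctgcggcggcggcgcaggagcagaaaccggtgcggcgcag
ZBTB48: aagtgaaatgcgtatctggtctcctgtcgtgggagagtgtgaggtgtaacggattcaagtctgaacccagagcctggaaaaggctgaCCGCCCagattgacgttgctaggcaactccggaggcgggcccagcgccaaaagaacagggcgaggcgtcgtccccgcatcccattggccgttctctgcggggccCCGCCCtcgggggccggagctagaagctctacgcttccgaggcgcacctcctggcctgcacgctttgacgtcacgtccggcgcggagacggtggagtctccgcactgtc
ZBTB34: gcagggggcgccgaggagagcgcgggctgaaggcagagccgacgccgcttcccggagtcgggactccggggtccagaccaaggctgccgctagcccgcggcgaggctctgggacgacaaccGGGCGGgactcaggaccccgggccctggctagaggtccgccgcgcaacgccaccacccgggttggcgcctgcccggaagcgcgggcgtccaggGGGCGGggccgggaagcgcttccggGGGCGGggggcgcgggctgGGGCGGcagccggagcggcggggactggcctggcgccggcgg
ZBTB1 and ZBTB25: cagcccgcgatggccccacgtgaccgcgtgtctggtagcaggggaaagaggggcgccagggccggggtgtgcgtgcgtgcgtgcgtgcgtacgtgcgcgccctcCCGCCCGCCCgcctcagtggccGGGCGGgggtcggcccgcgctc

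The windows held 1 GC box in ZBTB33, 5 in ZBTB24, 2 in ZBTB48 and 4 in ZBTB34, and the shared stretch of ZBTB1 and ZBTB25 held 3, where boxes that overlap each count. RefSeq had 68 windows for 35 of the 41 members. GGGCGG stood in 60.29% of the member windows, against 44.95% of all 35116 windows. By gene, 32 of the 35 members had it in at least 1 window. No share by gene was computed over all genes, and several members have more than 1 window. CCAAT, on either strand, was in 39.71% of member windows against 34.61% of all, and TATAAA in 8.82% against 11.53%. The palindrome CTCGCGAG, the core of a sequence recognised by Kaiso, was in none of the 68 member windows and in 1.02% of all windows. These are matches of letters in a window of 300 bases, and they say nothing about binding in these cells.

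Library totals ran from 31957953 to 115904780 counts, of which 3.94% to 6.25% were fly reads, and the members together held 23837 to 88358 counts per library. Levels are given as CPM, counts scaled to each library's size after trimmed-mean (TMM) correction. The epithelial markers EPCAM, KRT8, KRT18, KRT19, KRT20, CDH1, CDX2 and ELF3 were at 34.6 CPM or more in every library, whereas VIL1, LGALS4 and CEACAM5 were at 0.605 CPM or less and CDX1 had no read. The 12 epithelial markers summed to 3637 to 6570 CPM per library. Of the 10 that could be tested, 2 rose in SPT6-AID cells and 3 in PAF1-AID cells at 6 h and 0 fell, at median log2 fold changes of 0.28 and 0.43. By the same edgeR test (adjusted p under 0.05), 8.76% of all tested genes rose and 16.4% fell in SPT6-AID cells at 6 h. In PAF1-AID cells 4.2% rose and 6.7% fell. Of 11 leukocyte, fibroblast, endothelial and neuronal markers, 6 could be tested and 3 of those rose in SPT6-AID cells at 6 h, at sums of 6.37 and 5.80 CPM at 6 h against 4.57 and 3.38 CPM at 0 h; the part of either marker list in the results was not tested.

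Before auxin, the levels of the members ran from 21.2 CPM per kb down to almost no reads. Compared per kilobase of deposited transcript length, ZBTB7B (ThPOK, which directs CD4 T-cell fate) was highest, at 21.0 and 19.5 CPM per kb in PAF1-AID cells and 21.2 and 16.0 CPM per kb in SPT6-AID cells. ZBTB2 (15.3 and 18.3, against 17.0 and 14.4 CPM per kb) and ZBTB17 (16.1 and 16.4, against 14.7 and 14.2 CPM per kb) overlapped each other and were followed by ZBTB7A, ZBTB4 and ZBTB33. ZBTB33 stood at 10.1 and 9.52 CPM per kb in PAF1-AID cells, against 8.98 and 10.1 CPM per kb in SPT6-AID cells. ZBTB46 was the lowest of the tested members, at 0.548 and 0.285 CPM per kb in PAF1-AID cells, against 0.428 and 0.443 CPM per kb in SPT6-AID cells. Of the 36 neighbouring pairs in this order, 34 overlapped over the 4 libraries; ZBTB17 lay above ZBTB7A and ZBTB8A above ZBTB46 in all of them.

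**Figure D1:**
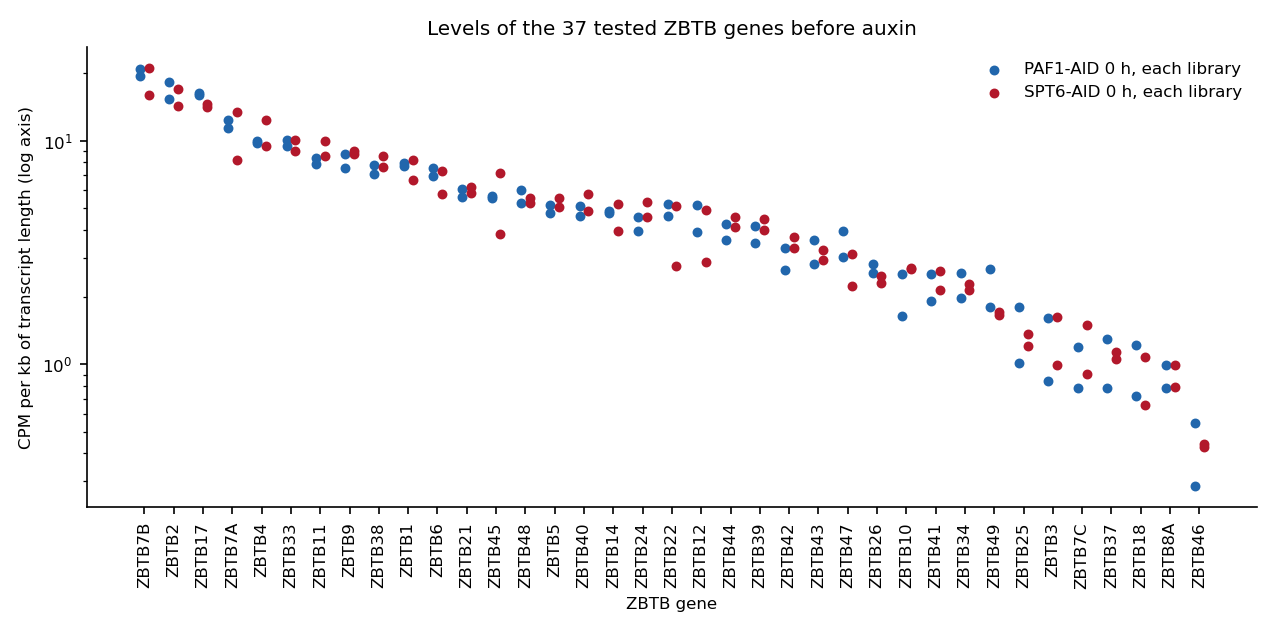
Level of each of the 37 tested ZBTB genes at 0 h of auxin in CPM per kb of transcript length (log axis), with a point for each of the 2 libraries of PAF1-AID cells and of SPT6-AID cells. Genes are ordered by the mean of the 4 libraries, from ZBTB7B to ZBTB46, and the lines overlap for most genes.

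Of the members, 4 were too low to test. ZBTB16 (PLZF), the founding spermatogonial and lymphoid member, had 2 reads over all 12 libraries, 1 each in replicate 1 of the untreated and the 2 h SPT6-AID cells. ZBTB20, a repressor of alpha-fetoprotein in mouse liver, had 14 reads in all, ZBTB8B had 9, and ZBTB32, a lymphoid member, had 7. A count of 3 corresponds to 0.0280 to 0.105 CPM depending on the library, which is the level below which a transcript can go unseen by counting error alone. None of the 37 tested members differed between PAF1-AID and SPT6-AID cells at 0 h (edgeR quasi-likelihood test, Benjamini-Hochberg adjustment over all 20791 genes, adjusted p under 0.05), where 0.0337% of all genes passed (0.00481% higher in PAF1-AID cells and 0.0289% lower). An unadjusted p under 0.05 was reached by 0 members, against 6.6% of all genes. DESeq2's Wald test and limma-voom made no call among the members either.

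Counting could not resolve every member. ZBTB8A shares 25.2% of its exon bases with a same-strand gene, and ZBTB24 shares 305 bases with the same-strand gene MICAL1. ZBTB11 shares exon bases with its antisense RNA, and ZBTB1 shares 507 bases with ZBTB25 on the other strand. The strand setting of the counting is not given in the sources used here, so the counts of these genes are uncertain. In all, 13 of the 41 members, ZBTB9 among them, overlapped an exon of another gene.

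After 2 h of auxin in SPT6-AID cells, most members stood a little below 0 h, and the number that passed depended on the test. The edgeR and limma-voom tests called 1 lower each (0.548% and 0.755% of all genes called), and DESeq2's Wald test called 11 lower (2.45% of all genes called). Log2 fold changes were below 0 in 34 of 37 members, against 47.7% of all tested genes, and the median was -0.44, against 0.01 over all genes. That median was -0.27 without replicate 1 at 0 h, and between -0.35 and -0.51 without any other library. For 25 members (67.6%) both 2 h libraries lay below both 0 h libraries, against 17.9% of all genes, and for 0 members both lay above, against 14.7%. An unadjusted p under 0.05 was reached by 17 members, against 7.42% of all genes. After adjustment 1 member passed, ZBTB9, against 0.462% of all genes called lower and 0.0866% called higher.

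ZBTB9 was at 14.9 and 16.9 CPM at 2 h, against 26.2 and 27.2 CPM at 0 h. Both 2 h libraries lay well under both 0 h libraries, and its log2 fold change was -0.75 ± 0.14 (SE; edgeR adjusted p = 0.0466). The call held in 1 of the 12 fits that left out a library, with adjusted p up to 0.442, and its counts are uncertain.

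The other members did not pass in edgeR. ZBTB11, named for a role in neutrophil development in zebrafish, was at 36.7 and 44.9 CPM at 2 h, against 60.4 and 70.0 CPM at 0 h (-0.68 ± 0.13, edgeR adjusted p = 0.0674). ZBTB39 was at 14.01 and 10.5 CPM, against 27.9 and 25.02 CPM, the lowest fold change of the family at 2 h (-1.12 ± 0.24, edgeR adjusted p = 0.0864). Smaller p-values than that of ZBTB10 were reached by other members, such as ZBTB24 (-0.80 ± 0.18, edgeR adjusted p = 0.106). ZBTB10, a repressor of SP-family targets, was at 14.3 and 15.1 CPM, against 27.4 and 27.5 CPM (-0.90 ± 0.30). The groups of ZBTB11, ZBTB39 and ZBTB10 did not overlap. ZBTB17 had a log2 fold change of 0.00, at 58.4 and 64.3 CPM at 2 h, against 62.2 and 60.1 CPM at 0 h.

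**Figure D2:**
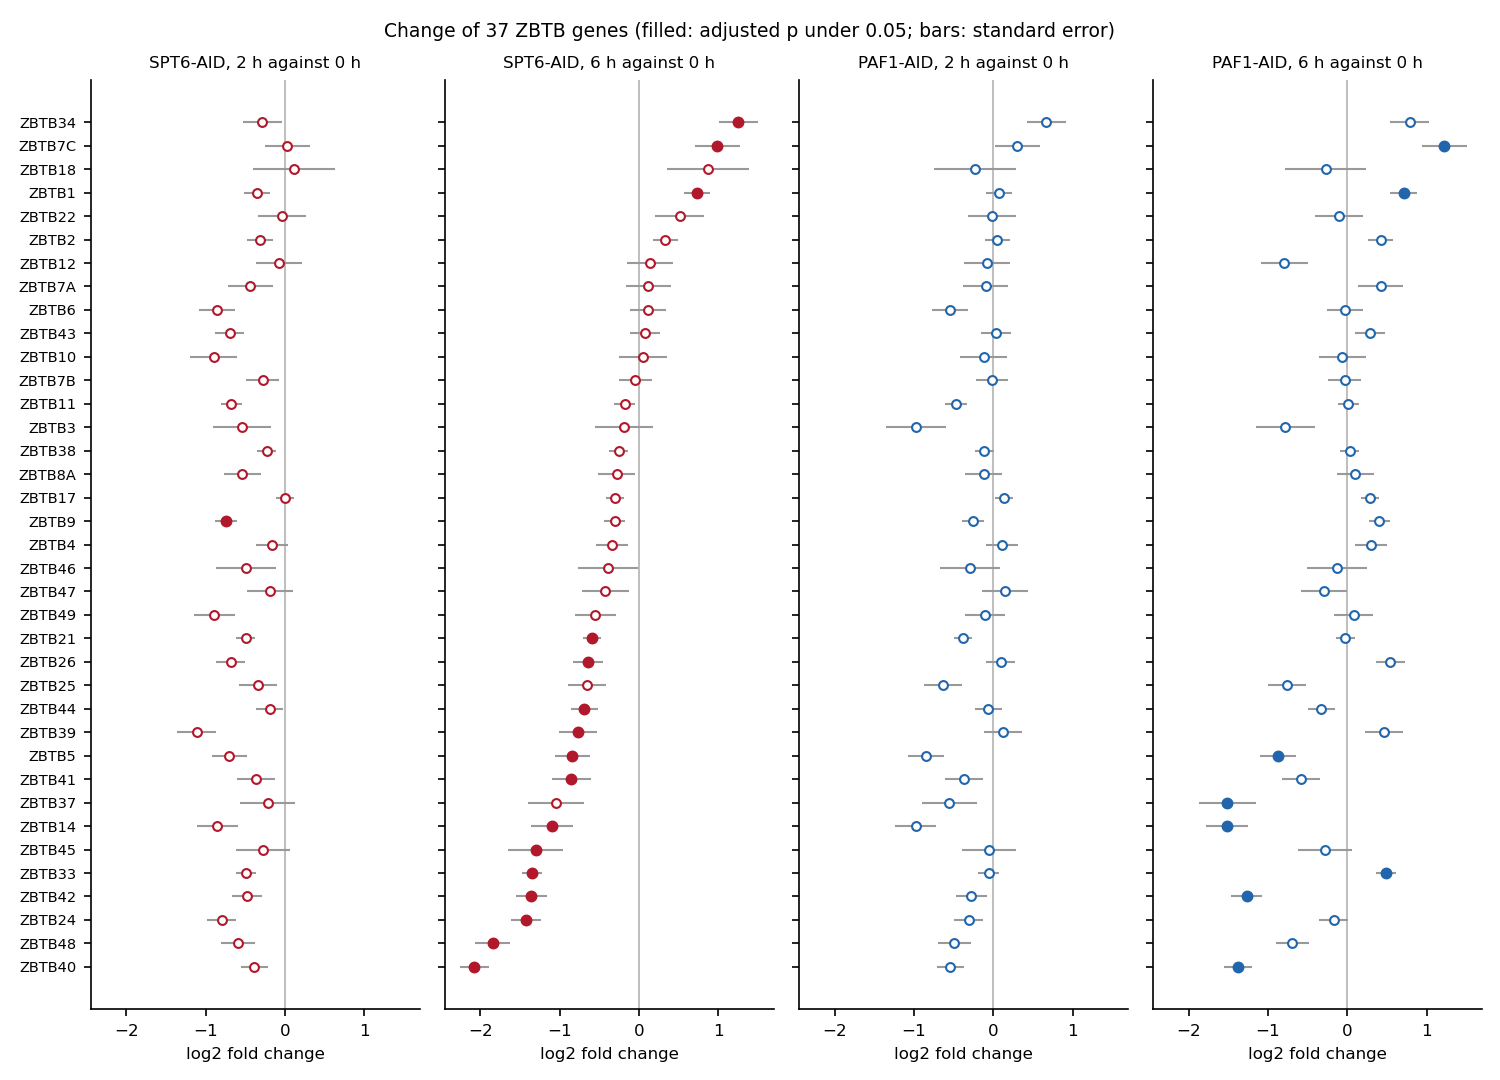
Log2 fold change (x axis) of the 37 tested members in each comparison with 0 h, with bars for the standard error, filled points for an adjusted p under 0.05, and genes ordered by the SPT6-AID change at 6 h. At 2 h in SPT6-AID cells nearly all points lie left of 0 with only ZBTB9 filled, whereas at 6 h 13 members lie below and 3 above 0 past the threshold.

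At 6 h in SPT6-AID cells 13 members were lower, 3 were higher and 21 were not past the threshold. The 16 calls are 43.2% of the 37, where 25.2% of all genes passed (16.4% lower and 8.76% higher). Both 6 h libraries lay below both 0 h libraries in 21 members (56.8%, against 31% of all genes) and above them in 4 (10.8%, against 27.7%). The log2 fold change was below 0 in 26 members, against 47.8% of all genes, and the median was -0.34, against 0.04. Without replicate 2 at 0 h the median was -0.52. An unadjusted p under 0.05 was reached by 20, against 36.3% of all genes.

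ZBTB40, whose locus is linked to bone density in human genetic studies, fell furthest (chromosome 1, 22428838 to 22531157, GRCh38). It stood at 53.2 and 44.5 CPM at 0 h, 38.3 and 36.4 CPM at 2 h and 13.5 and 9.53 CPM at 6 h in SPT6-AID cells. Each time lay clear of the one before it. The change at 6 h was -2.08 ± 0.18 (edgeR adjusted p = 0.000117), and 6 h also lay below 2 h (-1.69 ± 0.18, edgeR adjusted p = 0.000889).

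ZBTB48, also called TZAP, binds telomeric repeats (chromosome 1, 6580001 to 6589280). It stood at 25.1 and 23.8 CPM at 0 h, 15.6 and 16.7 CPM at 2 h and 8.48 and 5.06 CPM at 6 h in SPT6-AID cells, a stepwise descent without overlap. Its change was -1.84 ± 0.22 (edgeR adjusted p = 0.000345). MTFP1, a mitochondrial fission gene that ZBTB48 is known to activate, had a log2 fold change of -0.91 ± 0.36 that did not pass (edgeR adjusted p = 0.0983).

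ZBTB24, mutated in the immunodeficiency, centromeric instability and facial anomalies (ICF) syndrome, stood at 25.1 and 29.4 CPM at 0 h, 13.8 and 17.5 CPM at 2 h and 10.5 and 9.78 CPM at 6 h. Its GC-rich window, shown above, opens onto chromosome 6 at 109462594 to 109483237. The change at 6 h was -1.43 ± 0.19 (edgeR adjusted p = 0.000537). Its known target CDCA7, itself an ICF gene, also fell in SPT6-AID cells, at 22.9 and 12.5 CPM at 6 h against 41.9 and 38.3 CPM at 0 h (-1.17 ± 0.25, edgeR adjusted p = 0.00715). HELLS, the remodeller that works with CDCA7, had -0.25 ± 0.12 and did not pass (edgeR adjusted p = 0.166). In PAF1-AID cells CDCA7 was at 14.6 and 18.8 CPM at 6 h, against 27.4 and 29.7 CPM at 0 h, without passing. ZBTB24 had a log2 fold change of only -0.17 there. Whether CDCA7 followed ZBTB24 was not tested.

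The Kaiso subfamily binds methylated CpG sites and comprises ZBTB33, ZBTB4 and ZBTB38. ZBTB33 (chromosome X, 120250752 to 120258398, 1 coding exon) stood at 47.7 and 53.5 CPM at 0 h, 35.4 and 36.6 CPM at 2 h and 21.6 and 18.1 CPM at 6 h in SPT6-AID cells. The libraries of the 3 times did not overlap, and the change at 6 h was -1.35 ± 0.13 (edgeR adjusted p = 0.000149). ZBTB38 was at 103 and 89.7 CPM at 6 h, against 122 and 108 CPM at 0 h (-0.26 ± 0.12), and ZBTB4 at 64.4 and 41.4 CPM, against 75.7 and 57.9 CPM (-0.34 ± 0.20); neither passed (edgeR adjusted p = 0.158 and 0.264). CTNND1, which encodes the Kaiso partner p120-catenin, had -0.29 ± 0.17 and did not pass (edgeR adjusted p = 0.271).

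ZBTB42, linked to skeletal muscle development, was at 5.52 and 4.68 CPM at 6 h, against 13.9 and 12.4 CPM at 0 h. The groups were far apart (-1.36 ± 0.20, edgeR adjusted p = 0.000922). ZBTB21 had the smallest change that passed (-0.60 ± 0.12, edgeR adjusted p = 0.00452), at 33.3 and 31.0 CPM against 50.1 and 47.0 CPM. ZBTB40, ZBTB48, ZBTB24, ZBTB42, ZBTB33 and ZBTB21 passed in the 6 h comparison under all 21 alternatives tried.

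The other members that fell did so with more spread between libraries. ZBTB45 was at 8.98 and 4.30 CPM at 6 h, against 21.6 and 11.5 CPM at 0 h (-1.30 ± 0.35, edgeR adjusted p = 0.0195). ZBTB14 (ZF5), a GC-rich site binder and repressor of MYC, was at 11.4 and 6.29 CPM, against 21.7 and 16.4 CPM (-1.10 ± 0.26, edgeR adjusted p = 0.0113). ZBTB41 was at 13.8 and 8.97 CPM, against 22.7 and 18.7 CPM (-0.86 ± 0.25, edgeR adjusted p = 0.0271). In each of these 3 genes the 6 h libraries lay below the 0 h libraries, with a narrow gap in ZBTB45. ZBTB5, a repressor of CDKN1A, changed by -0.84 ± 0.22, ZBTB39 by -0.77 ± 0.24, ZBTB44 by -0.69 ± 0.17 and ZBTB26 by -0.65 ± 0.19, with edgeR adjusted p between 0.0142 and 0.039. Without replicate 1 at 0 h, edgeR adjusted p was 0.160 for ZBTB45, 0.0770 for ZBTB14, 0.134 for ZBTB41, 0.0877 for ZBTB5, 0.144 for ZBTB39 and 0.115 for ZBTB26. Without replicate 2 at 6 h it was 0.116, 0.0598, 0.173, 0.114, 0.223 and 0.159 for the same genes, and 0.0726 for ZBTB44. Without replicate 2 at 0 h it was 0.0507 for ZBTB5, 0.0812 for ZBTB39, 0.081 for ZBTB44 and 0.0756 for ZBTB26, and without replicate 1 at 6 h it was 0.0587 for ZBTB44. Without either 6 h library of PAF1-AID cells, which enter the shared spread, it was 0.0527 for ZBTB39. ZBTB45 changed by -0.79 without replicate 1 at 0 h, ZBTB39 by -0.45 without replicate 2 at 6 h, and ZBTB5 by -0.54 without the same library.

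ZBTB34, ZBTB7C and ZBTB1 rose at 6 h in SPT6-AID cells. ZBTB34 stood at 14.3 and 15.2 CPM at 0 h, 13.6 and 10.6 CPM at 2 h and 44.3 and 25.8 CPM at 6 h. Its 6 h libraries lay far above the rest and apart from each other, and the change was 1.25 ± 0.25 (edgeR adjusted p = 0.00449). ZBTB7C, a relative of ZBTB7A, was at 20.1 and 16.2 CPM at 6 h, against 11.5 and 6.88 CPM at 0 h (0.99 ± 0.28, edgeR adjusted p = 0.0278). ZBTB1, needed for lymphoid development in mice, was at 69.5 and 60.6 CPM, against 43.5 and 35.1 CPM (0.73 ± 0.17, edgeR adjusted p = 0.00923). Neither gene's groups overlapped. ZBTB7C had 0.65 (edgeR adjusted p = 0.186) without replicate 2 at 0 h and 0.86 (edgeR adjusted p = 0.097) without replicate 1 at 6 h, and ZBTB1 had 0.57 (edgeR adjusted p = 0.0914) without replicate 2 at 0 h.

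Libraries can also be scaled by their fly read totals, which lowers the median log2 fold change of all genes by more than 0.1 to -0.12 and -0.39 at 2 and 6 h in SPT6-AID cells and to -0.22 and -0.37 in PAF1-AID cells. On that scale 19 members fell and 0 rose in SPT6-AID cells at 6 h, where 32.7% of all genes passed. ZBTB34 (0.86), ZBTB7C (0.56) and ZBTB1 (0.30) stayed above 0 and did not pass (edgeR adjusted p = 0.0787, 0.212 and 0.381). All rises given here are therefore relative to the other genes of the library, and the amount of fly material added is not given in the sources used here.

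**Figure D3:**
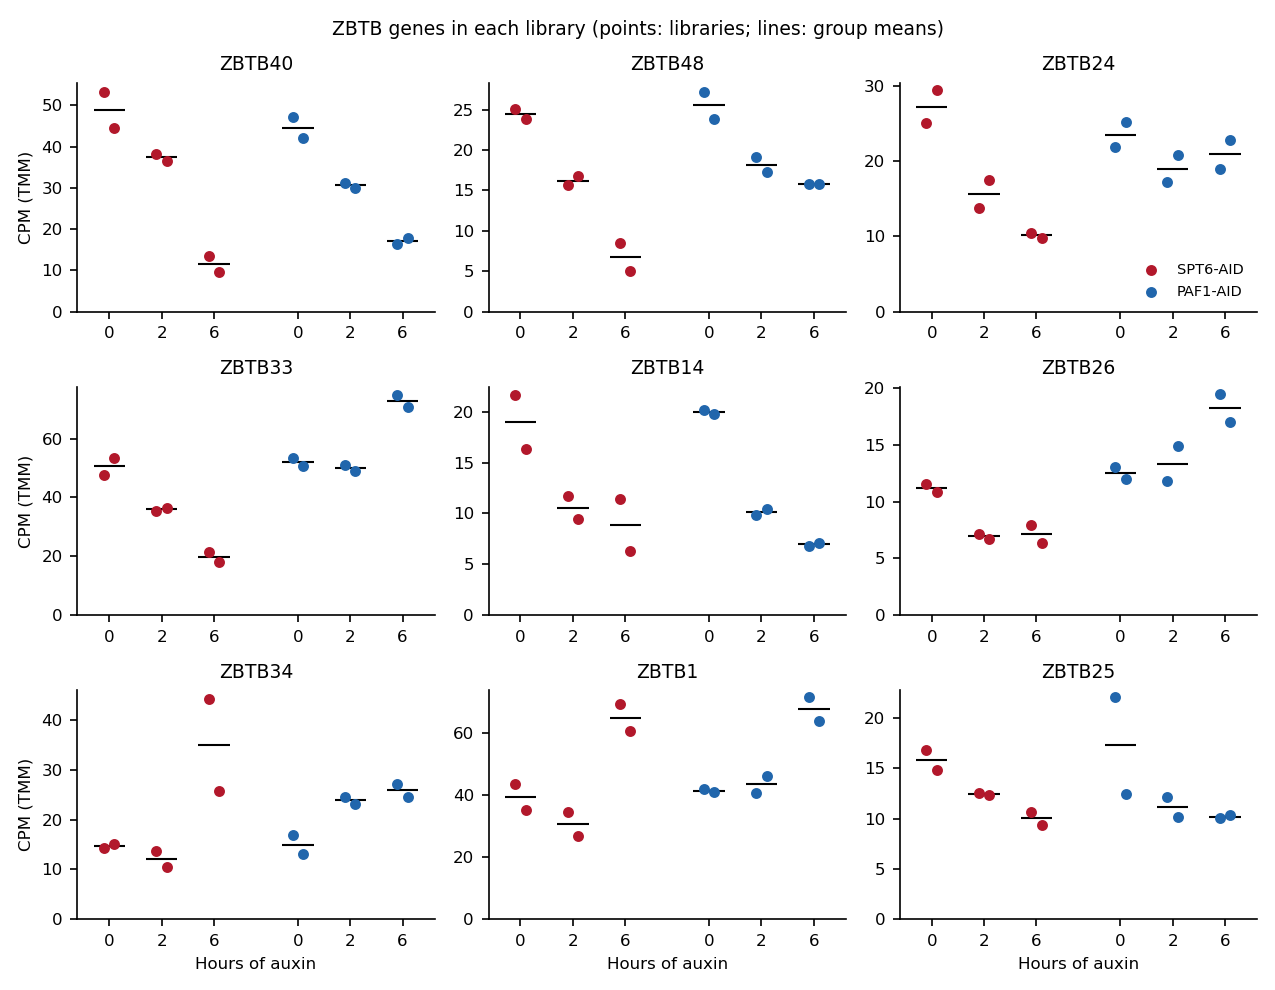
CPM of ZBTB genes in each of the 12 libraries (points) with the group mean (line), by hours of auxin, in SPT6-AID cells (left of each panel) and PAF1-AID cells (right); every y axis starts at 0. ZBTB40 falls in both lines, ZBTB33 falls in SPT6-AID cells and is highest at 6 h in PAF1-AID cells, and ZBTB1 rises at 6 h in both lines while its neighbour ZBTB25 does not.

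ZBTB7A and ZBTB17 did not pass at 6 h in SPT6-AID cells. ZBTB7A (LRF), which silences fetal globin, was at 100.3 and 57.7 CPM at 6 h, against 90.3 and 55.5 CPM at 0 h. Replicate 1 was far above replicate 2 at each time, and the log2 fold change of 0.12 ± 0.29 did not pass (edgeR adjusted p = 0.805). ZBTB17 (MIZ1), which partners MYC at cell-cycle inhibitor genes, was at 52.0 and 46.8 CPM at 6 h, against 62.2 and 60.1 CPM at 0 h, apart but not past the threshold (-0.31 ± 0.11, edgeR adjusted p = 0.0767). The fetal globin genes that ZBTB7A silences elsewhere were undetected, with 1 read of HBG1 and no read of HBG2 in the 12 libraries.

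Between 2 and 6 h in SPT6-AID cells, 12 of 37 members changed (32.4%, against 15.7% of all genes). The 5 that fell were ZBTB40, ZBTB48 (-1.25 ± 0.22), ZBTB42 (-0.88 ± 0.20), ZBTB33 (-0.86 ± 0.13) and ZBTB24 (-0.63 ± 0.19), against 10.4% of all genes called lower. The 7 that rose, against 5.32% of all genes called higher, were ZBTB34 (1.54 ± 0.25), ZBTB1 (1.09 ± 0.17), ZBTB6 (0.97 ± 0.23), ZBTB7C (0.96 ± 0.28), ZBTB43 (0.77 ± 0.19), ZBTB2 (0.65 ± 0.16) and ZBTB11 (0.49 ± 0.13). ZBTB6 was at 30.1 and 23.8 CPM at 0 h, 17.6 and 12.1 CPM at 2 h and 31.0 and 27.2 CPM at 6 h, and ZBTB11 at 60.4 and 70.0, 36.7 and 44.9, and 57.8 and 57.0 CPM. In both, the 2 h libraries lay below those of the other times. ZBTB10 had the same shape, with 26.7 and 30.1 CPM at 6 h, without passing (0.95 ± 0.30, edgeR adjusted p = 0.0585). The edgeR adjusted p of ZBTB24 was 0.0501 to 0.291 in the 12 fits that left out a library. ZBTB7C was called in 4 of the 12 (adjusted p up to 0.229) and ZBTB11 in 4 (up to 0.250), while ZBTB40, ZBTB48, ZBTB33, ZBTB34 and ZBTB1 were called in all 12. Without replicate 2 at 2 h, edgeR adjusted p was 0.122 for ZBTB6, 0.158 for ZBTB2, 0.104 for ZBTB42 and 0.0948 for ZBTB43. Without replicate 1 at 6 h it was 0.0554 for ZBTB6, 0.0714 for ZBTB2 and 0.0913 for ZBTB43. Without replicate 2 at 6 h it was 0.0951 for ZBTB42, and without replicate 1 at 2 h it was 0.0982 for ZBTB43. With DESeq2's size factors 9 members rose and 4 fell. Under fly scaling 2 members rose, ZBTB34 and ZBTB1, and 7 fell.

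After 2 h in PAF1-AID cells 0 members passed the threshold, where 0.149% of all genes did (0.0818% lower and 0.0673% higher). DESeq2's Wald test called 2 lower (1.32% of all genes called), and limma-voom called none (0.173%). In edgeR 10 members had an unadjusted p under 0.05, against 7.39% of all genes. The log2 fold change was below 0 in 27 members, against 48.3% of all genes, and the median was -0.11, against 0.01. It was -0.03 without replicate 3 at 0 h, -0.07 without replicate 4 at 2 h, and -0.17 without either replicate 4 at 0 h or replicate 3 at 2 h. Both 2 h libraries lay below both 0 h libraries in 14 members (37.8%, against 18.6%) and above them in 3 (8.11%, against 17.2%). ZBTB14 was at 9.89 and 10.4 CPM at 2 h, against 20.1 and 19.7 CPM at 0 h, without overlap but not past the threshold (-0.97 ± 0.26, edgeR adjusted p = 0.259). ZBTB5 was at 12.8 and 13.0 CPM, against 24.1 and 22.2 CPM (-0.85 ± 0.22, edgeR adjusted p = 0.253). ZBTB34 was at 24.5 and 23.2 CPM, against 17.0 and 13.1 CPM (0.67 ± 0.25, edgeR adjusted p = 0.511).

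At 6 h in PAF1-AID cells 5 members fell, 3 rose and 29 did not pass. The 8 calls are 21.6% of the 37, where 10.9% of all genes passed (6.7% lower and 4.2% higher). With total human counts as library sizes, 5 fell and 1 rose, where 10.6% of all genes passed. An unadjusted p under 0.05 was reached by 17 members, against 25.5% of all genes. The log2 fold change was below 0 in 21 members, against 48.3% of all genes, and the median of -0.03 stood beside 0.02 over all genes. Its sign turned without replicate 3 at 0 h (0.035) and without replicate 4 at 6 h (0.032), and it was -0.08 without replicate 4 at 0 h or replicate 3 at 6 h. Both 6 h libraries lay below both 0 h libraries in 12 members (32.4%, against 27.1% of all genes) and above them in another 12 (against 28.1%).

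ZBTB14 fell furthest, to 6.82 and 7.10 CPM at 6 h, against 20.1 and 19.7 CPM at 0 h. The tight replicates lay far apart between the times (-1.52 ± 0.26, edgeR adjusted p = 0.00633). ZBTB37 was at 5.91 and 8.34 CPM, against 25.4 and 15.3 CPM (-1.51 ± 0.36, edgeR adjusted p = 0.0245). ZBTB40 was at 16.4 and 17.8 CPM, against 47.1 and 42.1 CPM (-1.38 ± 0.18, edgeR adjusted p = 0.00219).

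ZBTB42 was at 4.72 and 4.50 CPM at 6 h, against 9.81 and 12.4 CPM at 0 h (-1.27 ± 0.20, edgeR adjusted p = 0.00409). ZBTB5 was at 13.6 and 11.7 CPM, against 24.1 and 22.2 CPM (-0.87 ± 0.22, edgeR adjusted p = 0.0329). None of the 5 genes that fell had overlapping groups. ZBTB40 and ZBTB42 passed under all 21 alternatives.

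The 3 members that rose were ZBTB7C, ZBTB1 and ZBTB33. ZBTB7C was at 18.9 and 16.3 CPM at 6 h, against 5.98 and 9.11 CPM at 0 h (1.22 ± 0.29, edgeR adjusted p = 0.0234). ZBTB1 was at 71.5 and 63.9 CPM, against 41.9 and 40.9 CPM (0.71 ± 0.16, edgeR adjusted p = 0.023). ZBTB33 was at 74.7 and 70.8 CPM, against 53.5 and 50.6 CPM (0.48 ± 0.13, edgeR adjusted p = 0.0374). In all 3 the groups lay apart. Scaled by fly reads, 9 members fell and 0 rose, where 15.2% of all genes passed, and ZBTB7C (0.86), ZBTB1 (0.32) and ZBTB33 (0.09) did not pass.

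Several of the PAF1-AID calls were lost when 1 library was left out, while the log2 fold changes kept their direction. In the fits that lost the call, ZBTB33 had 0.45 to 0.52, ZBTB1 0.64 to 0.77 and ZBTB5 -0.78 to -0.97. ZBTB7C had 0.95 to 1.31 and ZBTB37 -1.10 to -1.80. Without replicate 3 at 0 h, edgeR adjusted p was 0.159 for ZBTB37, 0.143 for ZBTB5, 0.153 for ZBTB7C, 0.102 for ZBTB1 and 0.120 for ZBTB33. Without replicate 3 at 6 h it was 0.194, 0.126, 0.139, 0.151 and 0.197 for the same genes, and 0.0711 for ZBTB14. Without replicate 4 at 6 h it was 0.0559, 0.15, 0.0591, 0.0568 and 0.105 for those 5 genes, and without replicate 4 at 0 h it was 0.0942 for ZBTB5, 0.103 for ZBTB1 and 0.154 for ZBTB33. ZBTB5 was also lost without either 2 h library of PAF1-AID cells (0.055 and 0.0553), and ZBTB33 was called in 2 of the 12 fits that left out a library. Between 2 and 6 h in PAF1-AID cells 0 members passed in edgeR (13 with an unadjusted p under 0.05). Of all genes, 0.875% passed (0.587% lower and 0.289% higher) and 13.9% had such a p. DESeq2 called 7 members and limma-voom 1, against 4.24% and 1.02% of all genes.

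The lines' responses at 6 h differed for 3 members, tested as the SPT6-AID change minus the PAF1-AID change. These 3 are 8.11% of the 37, where 3.74% of all genes passed (3.12% with the lower value in SPT6-AID cells, as here, and 0.62% with the higher). ZBTB33 differed most: its change was -1.35 ± 0.13 in SPT6-AID cells and 0.48 ± 0.13 in PAF1-AID cells, a difference of -1.83 ± 0.18 (edgeR adjusted p = 0.00338). At 6 h it was at 21.6 and 18.1 CPM in SPT6-AID cells and at 74.7 and 70.8 CPM in PAF1-AID cells, although both lines had started near 50 CPM.

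ZBTB24 changed by -1.43 ± 0.19 in SPT6-AID cells and by -0.17 ± 0.18 in PAF1-AID cells, where it was at 19.0 and 22.7 CPM at 6 h against 21.8 and 25.2 CPM at 0 h. The difference was -1.25 ± 0.26 (edgeR adjusted p = 0.0304). ZBTB26 was at 7.91 and 6.32 CPM at 6 h against 11.5 and 10.8 CPM at 0 h in SPT6-AID cells, and at 19.4 and 17.0 CPM against 13.1 and 11.95 CPM in PAF1-AID cells. Its difference was -1.19 ± 0.26 (edgeR adjusted p = 0.0369). The ZBTB33 difference passed in all 12 fits that left out a library and missed only with fly scaling, at -1.85 (edgeR adjusted p = 0.0695). ZBTB24 passed in 5 of the 12 and ZBTB26 in 1, with edgeR adjusted p up to 0.141 and 0.117 and differences of -1.09 to -1.38 and -1.03 to -1.32. With total human counts as library sizes, which moves the median of all genes in this contrast to 0.12, ZBTB24 and ZBTB26 did not pass, and with fly scaling they had -1.30 and -1.21 without passing. ZBTB48 had a difference of -1.15 ± 0.30 and ZBTB39 one of -1.23 ± 0.34 that did not pass (edgeR adjusted p = 0.0649 and 0.0791). At 2 h the response of 0 members differed past the threshold in edgeR, DESeq2 or limma-voom, where 0.0337% of all genes passed in edgeR (0.0192% lower and 0.0144% higher). An unadjusted p under 0.05 was reached by 6, against 2.53% of all genes.

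**Figure D4:**
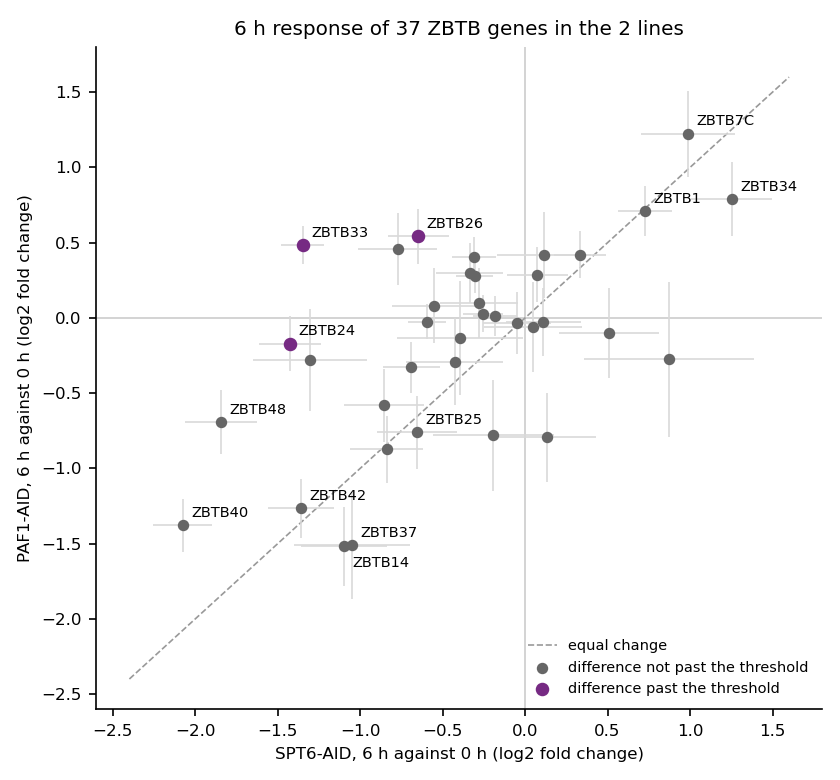
Log2 fold change at 6 h against 0 h in SPT6-AID cells (x axis) and PAF1-AID cells (y axis) for the 37 tested members, with bars for the standard error and a dashed line of equal change. ZBTB33, ZBTB24 and ZBTB26 (purple) lie above the line past the threshold, whereas ZBTB40, ZBTB42, ZBTB14 and ZBTB37 are low in both lines and ZBTB7C, ZBTB1 and ZBTB34 are high in both. The change of ZBTB37 in SPT6-AID cells (-1.05) and that of ZBTB34 in PAF1-AID cells (0.79) did not pass.

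Across the 37 members the changes of the lines at 6 h had a Pearson correlation of 0.60 and a Spearman correlation of 0.51, with the same sign in 22. Across all 20791 genes the values were 0.63 and 0.54. At 2 h they were 0.34 and 0.41 for the members, with the same sign in 28, against 0.35 and 0.37 for all genes. Genes are not independent replicates, and the lines have separate 0 h libraries.

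Some neighbouring members had unlike fold changes, but a difference between neighbours was not tested. The exon bases shared by ZBTB1 and ZBTB25 leave their counts uncertain. ZBTB1 and ZBTB25 lie head to head on chromosome 14, with RefSeq starts 49 bases apart and annotated genes overlapping by 1502 bases; ZBTB1 rose at 6 h in both lines. ZBTB25 was at 10.7 and 9.39 CPM at 6 h, against 16.8 and 14.8 CPM at 0 h in SPT6-AID cells, and at 10.0 and 10.3 CPM, against 22.1 and 12.5 CPM in PAF1-AID cells. Its libraries lay below those of 0 h in both lines without passing (-0.66 ± 0.24 and -0.76 ± 0.24, edgeR adjusted p = 0.0749 and 0.0722). ZBTB6 and ZBTB26 lie 2235 bases apart on the same strand of chromosome 9. ZBTB26 fell at 6 h in SPT6-AID cells, whereas ZBTB6 had 0.11 ± 0.23. ZBTB43 and ZBTB34, 22454 bases apart on chromosome 9, had 0.07 ± 0.18 and 1.25 ± 0.25 at 6 h in SPT6-AID cells.

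The members were also grouped by gene structure. Of the 41 members, 14 have a single coding exon. All 41 together lie on 15 chromosomes, with 9 on chromosome 1. At 6 h in SPT6-AID cells the 14 tested members with 1 coding exon had a median log2 fold change of -0.28, with 6 lower and 2 higher, and the 23 with more had -0.39, with 7 lower and 1 higher. The 14 members that span less than 20 kb had -0.37 (6 lower, 0 higher), and the 23 longer ones -0.34 (7 lower, 3 higher). Of all tested genes, 16.4% were called lower and 8.76% higher in that comparison. The Spearman correlation of the change with gene length was 0.17 at 2 h and -0.01 at 6 h across the 37 members in SPT6-AID cells, and 0.03 and 0.08 in PAF1-AID cells. With mean CPM it was 0.05 and 0.09 in SPT6-AID cells, and 0.24 and 0.38 in PAF1-AID cells. Across all 20791 genes the correlation with gene length was -0.15 and -0.23 in SPT6-AID cells, and -0.03 and -0.09 in PAF1-AID cells. That with mean CPM was -0.16 and -0.32 in SPT6-AID cells, and 0.08 and -0.02 in PAF1-AID cells.

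Other genes share the BTB and zinc-finger layout without a ZBTB name. Of 8, 7 could be tested, and in SPT6-AID cells at 6 h 4 fell and 1 rose. That is 71.4% of the 7, where 25.2% of all genes passed (16.4% lower and 8.76% higher). MYNN (myoneurin) was at 5.28 and 3.77 CPM at 6 h, against 15.7 and 19.5 CPM at 0 h (-1.95 ± 0.21, edgeR adjusted p = 0.000214), and ZNF131 changed by -1.14 ± 0.20 and GZF1 by -0.55 ± 0.13. BCL6, the germinal centre repressor, was at 31.3 and 34.2 CPM, against 22.1 and 19.9 CPM (0.64 ± 0.17, edgeR adjusted p = 0.0199). In PAF1-AID cells at 6 h MYNN alone of the 7 passed (-0.79 ± 0.20, edgeR adjusted p = 0.0307), where 10.9% of all genes did. At 2 h none of the 7 passed in either line. An unadjusted p under 0.05 was reached by 4 and 1 in SPT6-AID and PAF1-AID cells, against 7.42% and 7.39% of all genes.

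Of the 26 corepressor and ubiquitin-ligase subunits that BTB domains recruit, 11 fell and 0 rose in SPT6-AID cells at 6 h, at a median of -0.26, against 0.04 over all genes. The 11 are 42.3% of the list, where 25.2% of all genes passed and 16.4% fell. SIN3A, the scaffold of the SIN3 deacetylase complex, was at 50.7 and 37.9 CPM at 6 h, against 116 and 115 CPM at 0 h (-1.38 ± 0.18, edgeR adjusted p = 0.00054). BCOR, which binds the BCL6 BTB domain, changed by -1.04 ± 0.15, MTA3 of the NuRD complex by -0.82 ± 0.13 and TBL1XR1 of the NCOR complex by -0.90 ± 0.18. The deacetylases HDAC1, HDAC2 and HDAC3 did not pass (0.36, -0.02 and 0.11). In PAF1-AID cells at 6 h MTA3 alone of the 26 passed (-0.60 ± 0.13, edgeR adjusted p = 0.0147), where 10.9% of all genes did. The difference between the lines passed for SIN3A (-1.21 ± 0.25) and GATAD2A (-0.79 ± 0.17), with edgeR adjusted p of 0.0315 and 0.0369. No subunit passed at 2 h in either line. An unadjusted p under 0.05 was reached by 2 and 0 in SPT6-AID and PAF1-AID cells, against 7.42% and 7.39% of all genes.

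Partners and textbook targets of the family were followed too, of which 9 of 11 could be tested. In SPT6-AID cells at 6 h 2 rose and 3 fell, which is 55.6% of the 9, where 25.2% of all genes passed. The 3 that fell were CDCA7, given above, MAX and MYC. MYC was at 53.9 and 65.8 CPM at 6 h, against 82.0 and 146 CPM at 0 h. CDKN1A, the p21 gene repressed by several ZBTB factors, was at 93.7 and 117 CPM at 6 h, against 31.6 and 29.9 CPM at 0 h (1.78 ± 0.22, edgeR adjusted p = 0.000429). CDKN2B, the p15 gene repressed by the complex of MYC and MIZ1, was at 16.6 and 55.1 CPM, against 2.34 and 2.47 CPM (3.89 ± 0.85, edgeR adjusted p = 0.00764), with the 6 h libraries far from each other. MAX, the dimer partner of MYC, was at 33.2 and 29.5 CPM, against 48.5 and 47.9 CPM (-0.62 ± 0.11, edgeR adjusted p = 0.00299). In PAF1-AID cells at 6 h CDKN1A alone of the 9 passed (11.1%, against 10.9% of all genes). It was at 85.5 and 60.8 CPM at 6 h, against 41.4 and 28.9 CPM at 0 h (1.06 ± 0.22, edgeR adjusted p = 0.0138). The difference between the lines passed for MAX (-0.78 ± 0.16, edgeR adjusted p = 0.0289).

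The ZBTB genes were set beside larger families. Genes named ZNF encode C2H2 proteins mostly without a BTB domain. Of 371 tested, 16 rose and 164 fell in SPT6-AID cells at 6 h. These calls are 48.5%, against 43.2% of the ZBTB genes and 25.2% of all genes. The ZNF median was -0.60, against -0.34 for the ZBTB genes and 0.04 for all genes. At 2 h the ZNF median was -0.49 with 23 lower (6.2%), against -0.44 with 1 lower (2.7%) for the ZBTB genes. Of all genes, 0.462% were called lower there. In PAF1-AID cells at 6 h 19 ZNF genes rose and 75 fell, at a median of -0.23, against -0.03 for the ZBTB genes. These calls are 25.3%, against 21.6% of the ZBTB genes and 10.9% of all genes. Of 17 tested ZSCAN genes, 10 fell in SPT6-AID cells at 6 h (58.8%) and 7 in PAF1-AID cells (41.2%), with none higher. KLHL genes carry a BTB domain without zinc fingers. Of 28 tested, 3 rose and 8 fell in SPT6-AID cells at 6 h (39.3%), at a median of -0.09. These counts are descriptions, and differences between the families were not tested.

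**Figure D5:**
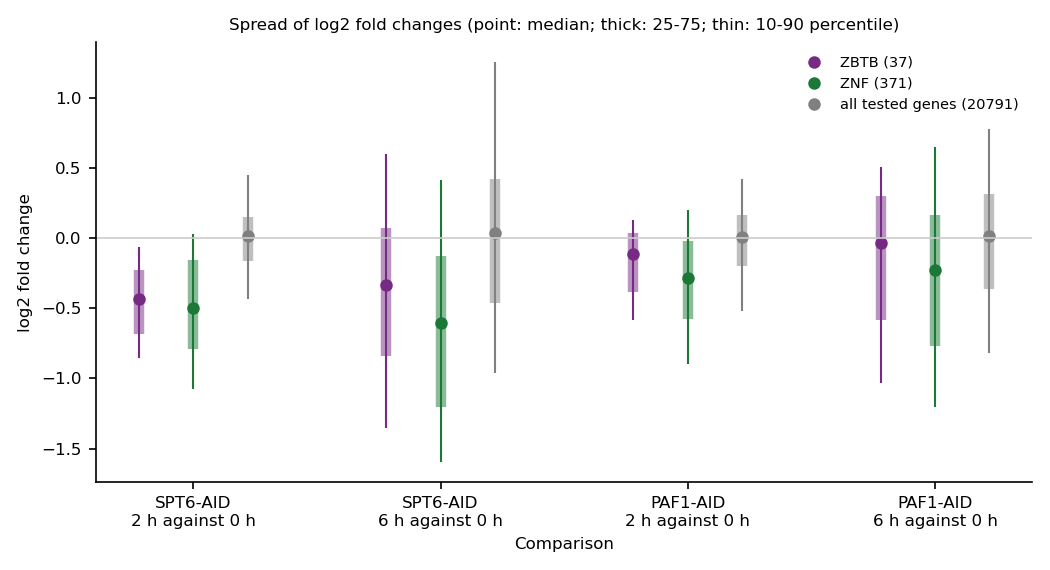
Median (point), 25th to 75th percentile (thick bar) and 10th to 90th percentile (thin bar) of log2 fold changes of ZBTB genes, ZNF genes and all tested genes in each comparison with 0 h. In SPT6-AID cells at 2 h the ZBTB median of -0.44 lies near the ZNF median of -0.49, and at 6 h the ZBTB genes spread wider, around -0.34.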

How the data were processed

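Poly(A) RNA was sequenced from 12 DLD-1 libraries, made with a directional kit per the labels' protocols. The submitters' processing notes list the tools STAR 2.7.5, featureCounts 2.0.0 and cutadapt 1.14, and name GRCh38 and BDGP6 as builds. The deposited table holds raw read counts per gene, not normalized, with a gene and a transcript length; the strand setting and annotation release are not given in the sources used here, which leaves overlapping genes uncertain.

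Human genes passing edgeR's filterByExpr (20791 of 60666) were scaled by TMM and fitted with 6 group means over 12 libraries, 6 residual degrees of freedom and the quasi-likelihood test in edgeR 4.0.16 (R 4.3.3). Adjustment was by Benjamini-Hochberg over all genes, at 0.05. Standard errors are the log2 fold change over the square root of F. Alternatives used DESeq2 1.42.0, limma 3.58.1, other scalings and filters, a replicate block and leaving out each library; a library left alone in its group was assumed to vary like the others. Simulated counts with known changes were used to check the edgeR fit. Positions came from GENCODE release 29 on GRCh38 and promoter windows from RefSeq GRCh38.p14; all 41 members matched by ID and 35 had a window. Libraries of a group differed beyond sampling noise (chi-square per degree of freedom 34.1 to 63.1). Depth was 31957953 to 115904780 counts; floors cover counting error only.

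The members and lists were chosen with earlier results of these data known. Log2 fold changes were given for members past the threshold in a comparison with 0 h, values per library for up to 8 in each direction and for ZBTB7A, ZBTB16, ZBTB17, ZBTB24 and ZBTB33, and up to 4 genes per other list by smallest p. Other named genes, such as ZBTB6, ZBTB10, ZBTB11, ZBTB25 and genes that did not pass, were chosen after their values were seen.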

Additional observations from a re-analysis of the deposited data

Results flagged for a closer look

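For 3 members the 6 h response differed between the lines in a test of the difference itself (edgeR, SPT6-AID change minus PAF1-AID change). The difference was -1.83 for ZBTB33, -1.25 for ZBTB24 and -1.19 for ZBTB26 on the log2 scale. ZBTB33 passed in each fit that left out a library, ZBTB24 in 5 of 12 and ZBTB26 in 1 of 12. The cause was not tested.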

How the results depend on the processing

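Of 4092 values under alternatives, for the 22 members called in at least 1 comparison, 3781 kept their direction and side of the threshold, 165 lost a call, 146 gained one and none changed direction past the threshold. Counts of called members moved by over 1.5 times as follows. For SPT6-AID at 2 h (1 call) there were 0 with DESeq2 size factors, total human counts, fly totals or the line alone, 4 without the low-count filter and 11 with DESeq2's Wald test. In that order, 0.438%, 0.317%, 0.159%, 0.0393%, 0.981% and 2.45% of all genes passed. For SPT6-AID at 6 h (16) there were 10 with the line alone. For PAF1-AID at 2 h (0) there were 2 without the filter and 2 with DESeq2, and for PAF1-AID at 6 h (8) there were 13 with DESeq2. The shares of all genes were 0.707%, 1.32% and 14.4%, in the same order. For 6 against 2 h in PAF1-AID cells (0) there were 5 without the filter, 2 at a mean of at least 1 CPM, 7 with DESeq2, 1 with limma-voom and 1 with the line alone. Of all genes, 1.71%, 1.46%, 4.24%, 1.02% and 0.521% passed in these fits. For the difference between the lines at 6 h (3) there were 1 with total human counts, 0 with fly totals, 5 without the filter and 8 with DESeq2. Those fits called 1.07%, 0.077%, 3.43% and 6.54% of all genes.

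Leaving out each library gave 0 to 2 calls for SPT6-AID at 2 h, 9 to 18 at 6 h and 6 to 12 for 6 against 2 h; 0 for PAF1-AID at 2 h, 2 to 10 at 6 h and 0 to 2 for 6 against 2 h; 1 to 6 for the difference between the lines at 6 h, and 0 for that at 2 h and for the lines at 0 h.

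Same-numbered libraries deviated together across genes (correlation 0.66 to 0.87 over 2 libraries a group), but the labels do not say that a number marks a shared culture. With the replicate block, calls were 20 for SPT6-AID at 2 h, 27 at 6 h and 22 for 6 against 2 h; 10 for PAF1-AID at 2 h, 22 at 6 h and 17 for 6 against 2 h; 4 and 15 for the difference between the lines at 2 and 6 h; and 4 for the lines at 0 h. Its calls over all genes were 7.76%, 51.4% and 40.7% in SPT6-AID cells, 6.98%, 38.3% and 20.1% in PAF1-AID cells, 1.15% and 21.7% for the difference between the lines, and 13.8% at 0 h.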
